A study of Mus musculus with 5 samples.

Results

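The genes described here are 10 that accompany the change from an epithelial to a mesenchymal cell state: the transcription factor genes Snai1, Snai2, Twist1, Twist2, Zeb1, Zeb2, Prrx1 and Prrx2, and 2 structural genes, Cdh2 and Vim. They were taken by gene symbol, as 10 of 18194 genes with a symbol of their own on the array, and they held 26 of its 45101 probe sets. A probe set is a group of short probes against 1 transcript region. The main probe set of a gene was its brightest over the 5 arrays, and the others are given beside it.

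The cells were mouse embryonic stem cells that had been differentiated on gelatin to a pancreatic fate. The 5 groups were untreated cells at day 5, day 6 and day 8 (the controls), and cells given 2 µM MPA from day 5 and collected at day 6 (1 day of exposure) or day 8 (3 days). MPA is named as the labels name it, and they do not write it out. Each group had 1 array, so no value carries a spread between cultures, and neither the order of a gene's signals over the arrays nor a difference between 2 arrays could be set against one.

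In an epithelium, cells are held together by E-cadherin and tight junctions. Snail, Zeb and Twist proteins bind E-box sequences in the regulatory regions of epithelial genes and lower their transcription, and cells that switch them on can lose their junctions, take up N-cadherin and vimentin, and migrate. Embryos use this switch when mesoderm and endoderm leave the epiblast, when neural crest cells leave the neural tube, and when limb and head mesenchyme forms, where Prrx factors are active.

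The signals were MAS5 intensities, scaled by array to a 2% trimmed mean of 500. Signals under 86.8, the median over all probe sets that are not controls, were raised to that floor before log2. A comparison of 2 arrays used a gene only if it cleared the floor on 1 or both, and such genes are called measured. Where 1 array was raised to the floor, the fold between the recorded signals can only be larger than the one printed, which is given as "at least". Noise in the signals is not part of that bound. Between 46.7% (day 6 with MPA) and 51.9% (day 8 control) of the probe sets lay above the floor. The ratio of 3' to 5' signal of Gapdh, which rises as RNA degrades, ran from 1.08 at day 5 to 1.57 at day 8 with MPA. It was 1.19 and 1.31 in the control and MPA arrays of day 6, and 1.55 and 1.57 in those of day 8. The same ratio of Actb was 2.08 at day 5, 3.04 and 3.06 in the control and MPA arrays of day 6, and 2.81 and 2.71 in those of day 8. The part of RNA quality in the results below was not tested.

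In the untreated cells the mesenchymal transition genes were higher at day 8 than at day 5. All 9 that were measured were higher, and 7 of them reached 2-fold: Snai2, Twist1, Twist2, Zeb1, Zeb2, Prrx1 and Prrx2. Their median log2 difference was 1.59, against 0.04 over all genes. None was 2-fold lower. Of all 12785 genes measured, 9.61% were 2-fold higher and 7.27% 2-fold lower. The first day already held part of this: at day 6, 4 of 9 were 2-fold above day 5 (Snai2, Twist2, Prrx1 and Prrx2) and 0 were 2-fold below it, against 5.46% and 4.40% of all genes. From day 6 to day 8, 5 of 9 were 2-fold higher (Snai2, Twist1, Zeb1, Cdh2 and Vim) and 0 2-fold lower, against 7.07% and 6.43%. With MPA at day 6 most were lower. In RNA from a whole culture, fewer cells of a type and less RNA per cell cannot be told apart. Of 9 measured, 7 were lower than in the control of that day and 4 were at least 2-fold lower (Snai2, Twist2, Zeb2 and Prrx2), against 3.15% of 12241 genes. The median was -0.96, against 0.02 over all genes. At day 8, 8 of 10 were lower, but only Zeb2 and Prrx2 by 2-fold, against 3.18% of 12600 genes, and the median was -0.25. None of the 10 was 2-fold higher with MPA at either day, where 4.02% and 3.72% of all genes were. The split over all genes depends on the scaling: with median centring, 3.20% were 2-fold higher and 3.90% 2-fold lower at day 6. All these comparisons share arrays, since the day 6 and day 8 controls enter both the time course and the MPA differences.

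**Figure D1:**
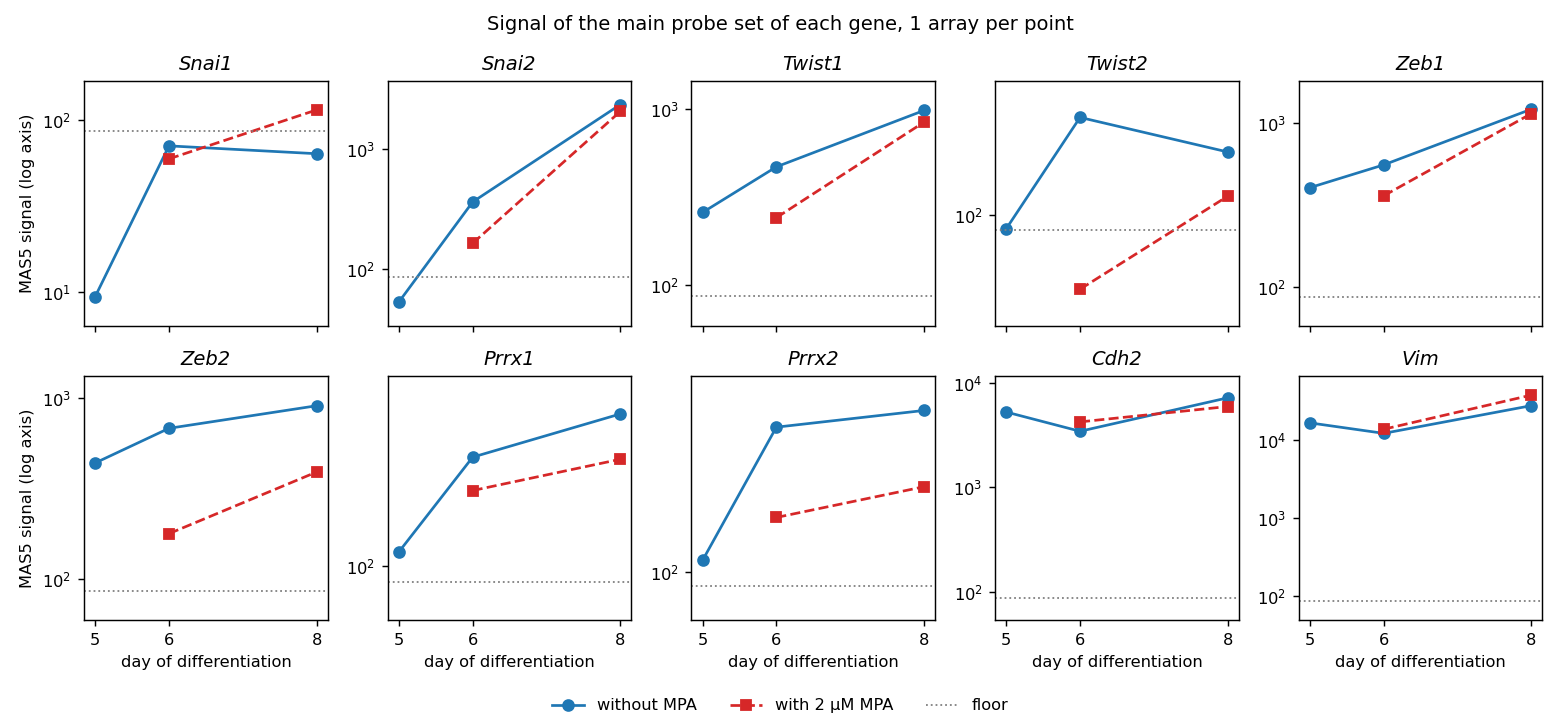
Signal of the main probe set of each of the 10 genes (log axis) against the day of differentiation. Circles and solid lines are the 3 arrays without MPA, squares and dashed lines the 2 arrays with 2 µM MPA, and the dotted line is the floor of 86.8. At day 6 the MPA square lies below the control for the 8 transcription factor genes (both of Snai1 under the floor), and slightly above it for Cdh2 and Vim.

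Snai2 encodes Slug, a zinc finger repressor of the Snail family that marks premigratory neural crest and many mesenchymal cells. Its signal was 53.2 at day 5, 363 and 2353 in untreated cells of days 6 and 8, and 164 and 2063 in MPA cells of those days. With signals under the floor raised to it, Snai2 had the widest range of the 10 over the arrays: day 8 was at least 27.1-fold above day 5 and 6.48-fold above day 6. MPA cells had 2.21-fold less at day 6 and 1.14-fold less at day 8. The main probe set has a name ending in _x_at, which marks probes that can also bind other transcripts. The other Snai2 probe set went the same way with smaller sizes, with signals of 7.35 at day 5, 96.1 and 245 in untreated cells of days 6 and 8, and 49.9 and 225 in MPA cells. On it, day 8 was at least 2.82-fold above day 5, and the MPA difference was at least 1.11-fold lower at day 6, so the 2-fold MPA difference rests on the main probe set.

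Snai1 encodes Snail, the family member that acts as mesoderm leaves the epiblast. It stayed under the floor on 4 of 5 arrays, with signals of 9.34 at day 5, 70.8 and 59.5 in control and MPA cells at day 6, and 63.8 in the day 8 control. Only the day 8 MPA array was above it, at 115, at least 1.32-fold higher than its control. Its paralogue Snai2 was thus the Snail gene above the floor in the day 8 control, although signals of different probe sets cannot be compared as amounts.

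Twist1 encodes a basic helix-loop-helix factor of cranial and limb mesenchyme. Its signal was 258 at day 5, 468 and 977 in untreated cells of days 6 and 8, and 241 and 838 in MPA cells of those days. The MPA array of day 6 lay next to day 5, and both lay below the day 6 control. MPA cells were 1.94-fold lower after 1 day and 1.16-fold lower after 3 days. From day 6 to day 8 the MPA arrays differed by 1.80 on the log2 scale, against 1.06 in the controls.

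Twist2, the close relative that acts in dermal and other connective tissue precursors, had another time course. Its signal was 87.6 at day 5, 251 and 181 in untreated cells of days 6 and 8, and 49.5 and 119 in MPA cells of those days. It was highest at day 6, 2.86-fold above day 5, and was 1.39-fold lower again at day 8. With MPA it was at least 2.89-fold lower after 1 day, where it was under the floor, and 1.52-fold lower after 3 days. Both Twist genes had 1 probe set, so neither has a second one to compare.

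Zeb1 encodes a zinc finger and homeodomain repressor of Cdh1. Its signal was 404 at day 5, 556 and 1212 in untreated cells of days 6 and 8, and 361 and 1139.9 in MPA cells of those days. It was 3.0-fold higher at day 8 than at day 5 in the controls. MPA cells were 1.54-fold lower after 1 day and 1.06-fold lower after 3 days. Of its 3 other probe sets, 1 was never above the floor. Between day 5 and day 8 of the controls, 1 was higher by at least 1.67-fold and 1 lower by at least 1.16-fold.

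Zeb2, the relative that is needed for neural crest and neural development, was 2-fold lower with MPA at both days. Its signal was 439 at day 5, 681 and 907 in untreated cells of days 6 and 8, and 179 and 391 in MPA cells of those days. Both MPA arrays lay below all 3 control arrays. MPA cells were 3.81-fold lower after 1 day and 2.32-fold lower after 3 days. The second brightest probe set had signals of 235 at day 5, 288 and 445 in untreated cells of days 6 and 8, and 99.9 and 267 in MPA cells, and was 2.88-fold and 1.67-fold lower. At day 6 all 3 other measured probe sets were lower with MPA, and at day 8 3 of 4 were. The exception at day 8 was a dim probe set with a control signal of 5.05 and an MPA signal of 117. Between day 5 and day 8 of the controls, Zeb2 was 2.07-fold higher on the main probe set. Of the 4 others, 3 were higher there, by 1.90-fold, 1.17-fold and at least 1.76-fold. The same dim probe set was at least 1.63-fold lower.

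Prrx1 and Prrx2 encode paired-type homeodomain factors of limb, head and heart mesenchyme. Prrx1 had signals of 113 at day 5, 262 and 385 in untreated cells of days 6 and 8, and 195 and 258 in MPA cells of those days. It stood 2.31-fold above day 5 at day 6 and 3.39-fold at day 8. MPA cells were 1.34-fold lower after 1 day and 1.49-fold lower after 3 days. Prrx1 has 5 other probe sets, and they were split in the controls. At day 6, 1 of the 2 measured was at least 1.08-fold above day 5 and the other 1.12-fold below it. At day 8, 2 of the 3 measured were above day 5, by at least 2.69-fold and 2.43-fold, and the third was 1.15-fold below it. With MPA the 3 measured at day 8 were lower, by at least 2.69-fold, 2.43-fold and 1.14-fold. At day 6, 1 of 2 was at least 1.17-fold lower with MPA and the other was 1.20-fold higher.

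Prrx2 had signals of 112 at day 5, 435 and 515 in untreated cells of days 6 and 8, and 174 and 237 in MPA cells of those days. Most of its control difference was present after the first day, 3.87-fold, with 4.58-fold at day 8. MPA cells were 2.50-fold lower after 1 day and 2.17-fold lower after 3 days. Prrx2 and Zeb2 were thus the members 2-fold lower at both days, and both calls depend on the processing. With the mean over probe sets the log2 difference of Zeb2 was -0.997 at day 6 and -0.50 at day 8. With the floor at the 75th percentile it was -0.81 at day 6 and Prrx2 stood at -0.16 and -0.41, all 3 as bounds with the MPA array at that floor. Prrx2 has 1 probe set, with a name ending in _a_at, which marks probes for several transcripts of 1 gene.

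**Figure D2:**
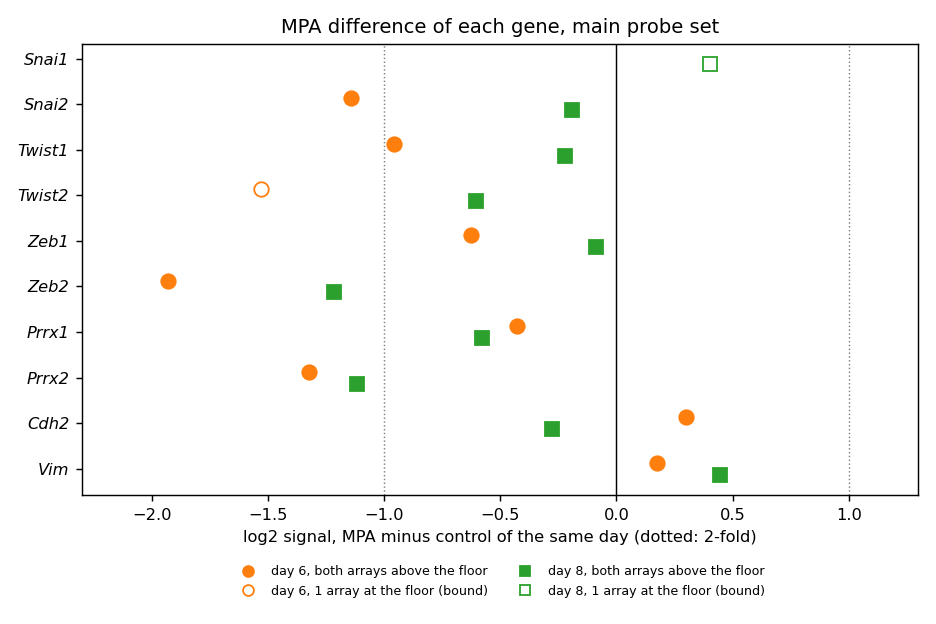
Difference of log2 signal between MPA and control cells of the same day for the main probe set of each gene, circles for day 6 and squares for day 8. Open symbols are bounds with 1 array at the floor, and dotted lines mark 2-fold. Snai2, Twist1, Twist2, Zeb1 and Zeb2 lie farther below 0 at day 6 than at day 8, Prrx1 and Prrx2 lie at similar values on both days, and Vim lies above 0 on both.

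The 2 structural genes were less than 1.5-fold apart with MPA at both days. Cdh2 encodes N-cadherin, the adhesion molecule of neural and mesenchymal cells. Its signal was 5229.85 at day 5, 3425 and 7147.5 in untreated cells of days 6 and 8, and 4211 and 5904 in MPA cells of those days. It was 1.53-fold lower at day 6 than at day 5 and 2.09-fold higher at day 8 than at day 6. MPA cells were 1.23-fold higher after 1 day and 1.21-fold lower after 3 days. The second Cdh2 probe set had the same directions in all 5 comparisons.

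Vim encodes vimentin, the intermediate filament protein of mesenchymal cells, which many cultured and progenitor cells also make. Its signal was 16392 at day 5, 12046.5 and 27212 in untreated cells of days 6 and 8, and 13596 and 37097 in MPA cells of those days. It was 1.66-fold higher at day 8 than at day 5. MPA cells were 1.13-fold higher after 1 day and 1.36-fold higher after 3 days. Both other Vim probe sets were higher with MPA at day 6, by 1.37-fold and 1.29-fold. At day 8 they split, 1.20-fold higher on 1 and 1.05-fold lower on the other.

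**Figure D3:**
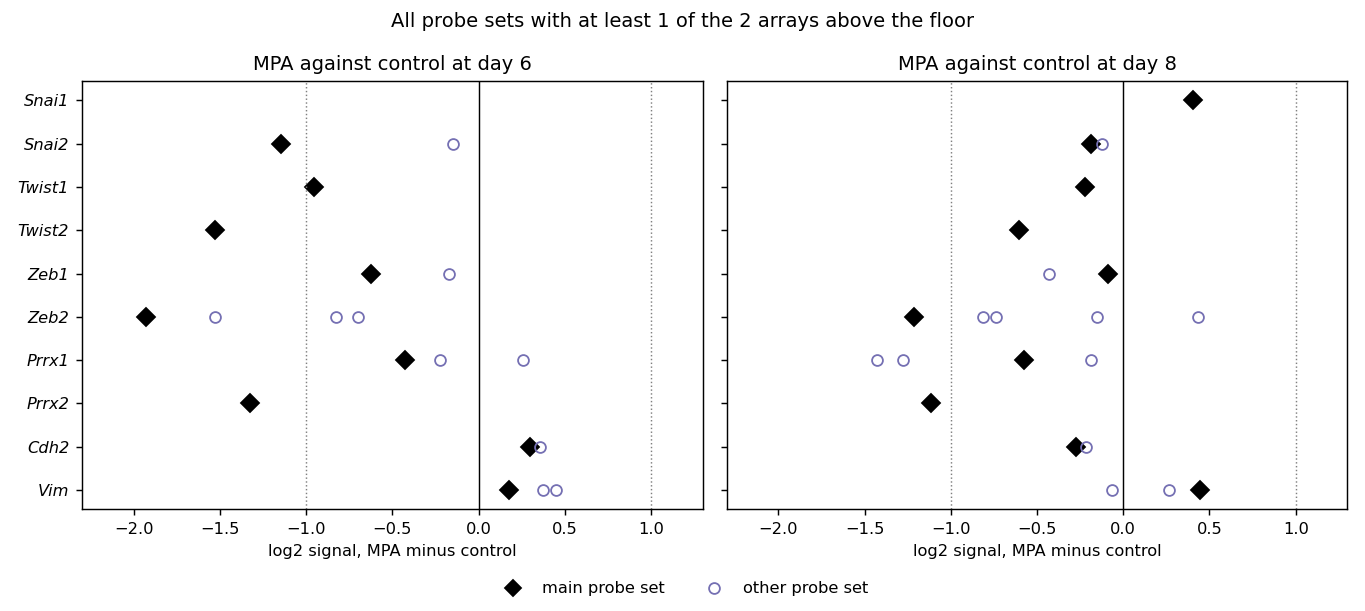
Difference of log2 signal between MPA and control cells at day 6 (left) and day 8 (right) for each probe set of the 10 genes that was measured there. Filled diamonds are main probe sets and open circles the others. At day 6 the 3 other measured Zeb2 probe sets lie below 0 with the main one, and at day 8 1 of 4 lies above it.

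A test over both days used limma, a linear model with moderated errors, on the control and MPA arrays of days 6 and 8, with a term for the day. It leaves 1 residual degree of freedom. Its error for a gene combines 2 parts. They are how far the gene's MPA difference of day 6 lies from that of day 8, and a value estimated over the genes tested. Cultures are not replicated in either part. Of the 9 genes tested, 0 passed at a Benjamini-Hochberg adjusted p under 0.05, where 1 of 11600 genes did (0.00862%). Zeb2 had a mean log2 difference of -1.57 (SE 0.35, limma adjusted p 0.494, lower at both days) and ranked 33rd by p. Prrx2 had one of -1.22 (SE 0.37, limma adjusted p 0.634) and Twist2 one of -1.07 (SE 0.40, limma adjusted p 0.713). These 3 were the members with an unadjusted p under 0.05, which held for 6.36% of all genes tested. The other 6 had limma adjusted p from 0.805 to 0.995. For Cdh2 the mean log2 difference was 0.01 (SE 0.20) and for Vim 0.31 (SE 0.15).

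The size of the MPA difference at each day varied among the transcription factor genes. For Snai2, Twist1 and Zeb1 the log2 difference went from -1.14, -0.96 and -0.62 at day 6 to -0.19, -0.22 and -0.09 at day 8. In the MPA arrays these 3 were higher at day 8 than at day 6 by 3.65, 1.80 and 1.66. For Prrx1 and Prrx2 the difference was -0.43 and -1.32 at day 6 and -0.58 and -1.12 at day 8. Zeb2 went from -1.93 to -1.21. With 1 array per group the change of a difference between the days was not tested.

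Genes whose profile over the 5 arrays lay closest to a member's were found by the root mean square distance between log2 profiles, each centred on its mean. For Vim the closest of 9091 candidates was Epb41l5, of an adaptor protein at cell junctions (distance 0.03), followed by Tmsb4x, of the actin-binding thymosin beta 4 (0.09). Cdh2 lay closest to Acin1 (0.06). Zeb1 lay closest to Hs6st2 (0.09), of a heparan sulfate sulfotransferase, and Tns1 (0.09), of the focal adhesion protein tensin. Twist1 lay closest to Ctdspl (0.12) and Ssbp2 (0.13), and Zeb1 itself was next (0.15). Prrx1 lay closest to Arid4a (0.09) and Zeb2 to Lcorl (0.23). Prrx2 lay closest to Lztr1 (0.26) and B4galt2 (0.29). Next to it after these was Pdgfrb (0.33), the receptor gene of platelet-derived growth factor in mesenchyme. Its signals were 232 at day 5, 716 and 670.2 in untreated cells of days 6 and 8, and 443 and 475 in MPA cells. Snai2 had no near neighbour at that scale, with Aldh1a7 at 0.41, Tgfbi at 0.50 and Nr2f1 at 0.51. Over 5 arrays many genes share a profile, and these distances are a description.

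The other genes of the pathway were grouped by role. Their 2-fold counts with MPA stand against shares over all genes of 4.02% higher and 3.15% lower at day 6. At day 8 these shares were 3.72% and 3.18%. Twist proteins act as dimers with E proteins and are held back by Id proteins. None of 8 measured genes of this group was 2-fold apart with MPA at day 6, and 1 of 9 was at day 8. That gene was Id3, whose signal was 2088 at day 5, 1842 and 2243 in control and MPA cells at day 6, and 7346 and 3266 at day 8. In the controls day 8 was 3.52-fold above day 5, and MPA cells of day 8 were 2.25-fold below their control. Id2 was 3.45-fold above day 5 by then, and 1.53-fold and 1.19-fold lower with MPA at day 6 and day 8. The E protein gene Tcf12 was 1.54-fold higher after 1 day of MPA and 1.49-fold lower after 3 days.

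Genes of co-repressors that Snail and Zeb proteins recruit, and of factors that set Snail turnover, differed little. Of 13 measured, 0 were 2-fold apart with MPA at either day, and their medians were 0.03 and 0.04. Ctbp1, of a co-repressor of Zeb proteins, was 2.08-fold above day 5 at day 8 of the controls, and 1.05-fold higher with MPA at both days.

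The next list held genes of signals that can start the transition, and of their receptors, Smad proteins, inhibitors and related transcription factors. With MPA at day 6, 16 of 18 measured genes were higher, 4 of them at least 2-fold, and 0 were 2-fold lower (median 0.34). Over all genes, 51.5% were higher with MPA at day 6 and 48.1% at day 8. Bmp2 had signals of 1406 without and 3533 with MPA at day 6, and 292 and 604 at day 8, which is 2.51-fold and 2.07-fold higher. Bmp4 was 3.17-fold higher after 1 day and 1.39-fold lower after 3 days. Tgfb2, of a ligand that induces the transition in heart and palate, was at 89.4 at day 5, 204 and 384 at day 6, and 1474 and 1951 at day 8. Its control signal at day 8 was 16.5-fold that of day 5, and it was 1.88-fold and 1.32-fold higher with MPA. Of the genes of primitive streak stages, Eomes was 30.4-fold and Fgf8 at least 43.4-fold below day 5 by day 8. At day 8, 13 of 20 were higher with MPA, 2 of them 2-fold and 2 others 2-fold lower (median 0.05).

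Other transcription factors of mesenchyme went both ways. Of 15 measured, 3 were 2-fold higher and 2 2-fold lower with MPA at day 6, and 4 and 2 at day 8. The forkhead genes differed from each other. Foxc2, of paraxial mesoderm, had signals of 5.02 at day 5, 2491 and 1061 at day 6, and 342 and 323 at day 8, and was 2.35-fold lower with MPA at day 6. Foxf1, of gut and lateral mesenchyme, was 1.45-fold higher after 1 day and 3.74-fold higher after 3 days. Sox9 was 1.92-fold and 2.43-fold higher. Msx1, of a homeodomain factor, was 2.79-fold higher after 1 day and 9.33-fold lower after 3 days.

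Genes of mesenchymal products lay on both sides of their controls with MPA. Of 27 measured at day 6, 17 were higher and 10 lower with MPA, with 2 at least 2-fold apart each way and a median of 0.21. At day 8, 14 of 26 were higher, 4 of them 2-fold, and 12 were lower, 2 of them 2-fold, with a median of 0.21 (0.04 to 0.40 over the alternatives). In the controls 11 of 27 were 2-fold higher at day 8 than at day 5, whereas 0 were 2-fold lower (median 0.62). The shares over all genes were 9.61% and 7.27%. Col3a1, of a fibrillar collagen, had signals of 235 at day 5, 402 and 625 at day 6, and 5367 and 4884 at day 8. Cdh11, of a mesenchymal cadherin, was 7.65-fold above day 5 at day 8 of the controls, and 1.11-fold apart with MPA in each direction, higher at day 6 and lower at day 8. Tagln and Acta2, of smooth muscle cytoskeleton, were 1.23-fold and 1.19-fold higher after 1 day of MPA, and 2.57-fold and 1.57-fold higher after 3 days. Dcn, of the matrix proteoglycan decorin, was 2.07-fold and 2.74-fold higher, and Col6a2 was 1.69-fold and at least 2.06-fold lower.

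Epithelial genes that Snail, Zeb or Twist proteins are known to lower, or that mark the same cell state, were higher with MPA. At day 6, 22 of 29 measured were higher, 4 of them 2-fold, and 0 were 2-fold lower (median 0.31). At day 8, 29 of 30 were higher, 9 of them 2-fold, and 0 were 2-fold lower (median 0.82, 0.79 to 0.84 over the alternatives). Over all genes the medians were 0.02 and -0.02. Of all genes, 4.02% and 3.72% were 2-fold higher at day 6 and day 8, and 3.15% and 3.18% 2-fold lower. In the controls the list was split between day 5 and day 8. There 12 of 29 were higher, 4 of them 2-fold, and 17 were lower, 6 of them 2-fold (median -0.09). The shares over all genes there were 9.61% 2-fold higher and 7.27% 2-fold lower. Cdh1, which encodes E-cadherin, had signals of 8083 at day 5, 8119 and 10647 in control and MPA cells at day 6, and 7607 and 13635 at day 8, 1.31-fold and 1.79-fold higher with MPA. Esrp2, of an epithelial splicing regulator, was 1.86-fold and 3.37-fold higher. The membrane protease gene St14 was 2.35-fold and 2.57-fold higher. Of the tight junction genes, Cldn4 was 2.84-fold and 1.81-fold higher and Ocln 1.42-fold and 3.54-fold higher. Cldn3 was 1.19-fold lower after 1 day and 3.66-fold higher after 3 days. The one measured gene that was lower at day 8 was Grhl2, named after its values were seen, of an epithelial factor that opposes Zeb1, 2.13-fold higher after 1 day and 1.37-fold lower after 3 days.

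**Figure D4:**
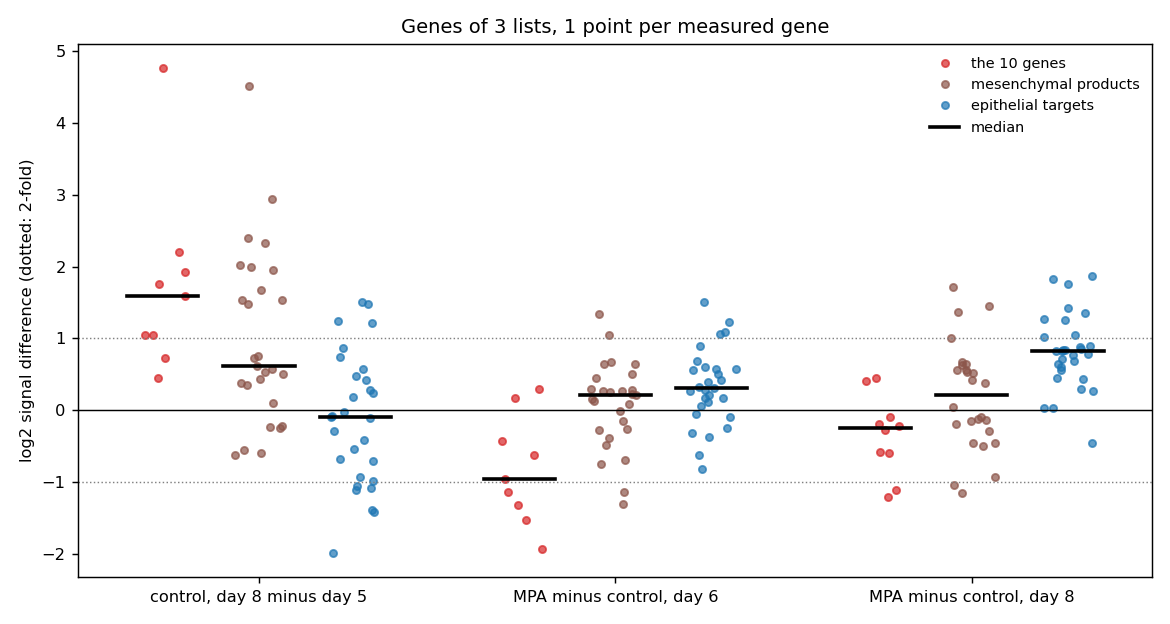
Log2 signal differences of the 10 genes, of mesenchymal products and of epithelial targets, 1 point per measured gene with the median as a bar, for day 8 against day 5 in the controls and for MPA against control at day 6 and day 8. The median of the 10 genes is 1.59, -0.96 and -0.25, that of mesenchymal products 0.62, 0.21 and 0.21, and that of epithelial targets -0.09, 0.31 and 0.82.

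Among the cadherins, the signal of Cdh1 was thus higher with MPA at both days while that of Cdh2 was higher at day 6 and lower at day 8. Cdh3, of P-cadherin, was 1.38-fold and 2.51-fold higher, and Jup, of the junction protein plakoglobin, 1.35-fold and 2.13-fold higher. Among the intermediate filament genes, the epithelial Krt7 was 1.60-fold and 2.61-fold higher and Krt8 1.49-fold and 1.63-fold higher, beside Vim at 1.13-fold and 1.36-fold. The neurofilament genes Nefl and Nefm were 2.64-fold and 2.56-fold lower after 1 day of MPA, and 1.02-fold and 1.08-fold higher after 3 days.

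Promoter sequences show where the letters of the E-box that Snail and Zeb proteins prefer stand. The windows were the 250 bases before the start of each RefSeq gene model (GRCm38.p6), matched by symbol. Those on 1 chromosome were left out for the 10 genes and the epithelial targets, but not among all windows. This left windows for 7 of the 10 genes (not Snai2, Zeb1 and Cdh2) and for 19 of the 31 epithelial targets. Missing genes without a matching symbol and those on that chromosome are not told apart here. The motif was CACCTG, searched on both strands, so also as CAGGTG, and it is 1 case of the general E-box CANNTG. It stood in 17.2% of all 32851 windows. It stood in 14 of 23 windows of epithelial targets and in 1 of 10 windows of the 7 genes, that of Snai1. Windows of 1 gene can overlap. Counted by gene, it stood in 13 of the 19 epithelial targets and in 1 of the 7 genes. CANNTG stood in 66.2% of all windows, in 17 of 23 of the epithelial targets and again in 1 of 10 windows of the 7 genes. A match is a run of letters, not a bound site. Below, the Snai1 window is shown as the one with a match, those of Zeb2 (its first of 4) and Prrx2 as the members 2-fold lower with MPA at both days, and those of Cldn4, Ap1m2 and Krt8 as epithelial targets with a match, all 5′ to 3′ on the gene's strand with the motif in capitals.
Snai1, chr2:167537945-167538194 (+ strand): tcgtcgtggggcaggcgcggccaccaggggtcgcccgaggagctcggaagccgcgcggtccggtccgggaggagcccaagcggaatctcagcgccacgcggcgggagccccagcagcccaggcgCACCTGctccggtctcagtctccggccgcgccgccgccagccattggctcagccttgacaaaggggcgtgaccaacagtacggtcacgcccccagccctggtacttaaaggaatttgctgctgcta
Zeb2, chr2:45117443-45117692 (- strand): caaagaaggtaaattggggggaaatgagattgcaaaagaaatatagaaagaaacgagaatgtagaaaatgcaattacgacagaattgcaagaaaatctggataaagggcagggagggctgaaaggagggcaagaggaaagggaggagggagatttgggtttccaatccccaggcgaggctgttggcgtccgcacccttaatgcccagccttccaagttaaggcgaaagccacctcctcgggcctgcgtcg
Prrx2, chr2:30845117-30845366 (+ strand): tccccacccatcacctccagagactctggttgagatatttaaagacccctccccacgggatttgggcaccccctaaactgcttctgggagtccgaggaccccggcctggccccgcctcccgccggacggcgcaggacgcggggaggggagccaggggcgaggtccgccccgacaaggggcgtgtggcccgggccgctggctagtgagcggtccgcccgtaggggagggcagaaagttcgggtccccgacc
Cldn4, chr5:134946935-134947184 (- strand): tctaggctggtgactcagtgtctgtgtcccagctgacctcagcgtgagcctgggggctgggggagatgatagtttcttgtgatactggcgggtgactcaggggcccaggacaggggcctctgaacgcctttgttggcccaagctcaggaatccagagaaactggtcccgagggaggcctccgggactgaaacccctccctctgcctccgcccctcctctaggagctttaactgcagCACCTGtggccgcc
Ap1m2, chr9:21312334-21312583 (- strand): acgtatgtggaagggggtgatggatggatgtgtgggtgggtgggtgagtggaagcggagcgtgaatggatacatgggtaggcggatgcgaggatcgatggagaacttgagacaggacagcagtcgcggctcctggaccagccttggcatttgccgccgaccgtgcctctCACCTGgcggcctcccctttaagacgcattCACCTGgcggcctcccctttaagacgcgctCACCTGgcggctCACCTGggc
Krt8, chr15:102004343-102004592 (- strand): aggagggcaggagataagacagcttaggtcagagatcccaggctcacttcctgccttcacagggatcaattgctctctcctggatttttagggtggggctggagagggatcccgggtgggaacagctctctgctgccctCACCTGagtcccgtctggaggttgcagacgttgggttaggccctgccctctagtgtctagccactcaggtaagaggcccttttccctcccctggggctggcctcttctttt
Counted from -1 at the last base before the gene start, the match began at -126 in Snai1, at -14 in Cldn4 and at -111 in Krt8. Ap1m2, of an epithelial sorting adaptor, held 4 matches, the first at -81. Its signal was 1.12-fold and 1.70-fold higher with MPA at day 6 and day 8 and 2.66-fold lower at day 8 than at day 5 in the controls. In Zeb2 and Prrx2 the letters are not in these windows.

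Several cell types make these factors, and their markers differed between the same arrays. Over all genes, 3.15% were 2-fold lower with MPA at day 6 and 3.18% at day 8, where 3.72% were 2-fold higher. Of the neural progenitor and neuron markers, 6 of 9 measured were at least 2-fold lower with MPA at day 6 and 6 of 11 at day 8. Their floored signals summed to 5363 in control and 2774 in MPA cells of day 6, and to 16399 and 5464 at day 8, with Zic1 21.7-fold lower at day 8. Of the neural crest markers 3 of 7 were 2-fold lower at each day. The sums were 5756 in control and 7656 in MPA cells of day 6, and 4601 and 2683 at day 8. In this list Pax3 was 3.35-fold and 4.60-fold lower, while Erbb3 was 2.41-fold and 1.80-fold higher. Of the paraxial mesoderm markers 3 of 4 measured were 2-fold lower at day 6 and 1 of 5 at day 8. The sums were 5922 and 2588 at day 6, and 1983 and 1434 at day 8, and Meox1 was 4.36-fold and 1.74-fold lower. Msgn1, Meox2 and Pax1 of that list were never above the floor. In the cardiac and lateral mesoderm list 5 of 6 measured were lower with MPA at day 6, 1 of them 2-fold. At day 8, 6 of 7 were higher, 2 of them 2-fold. That list summed to 1261 and 994 at day 6 and to 3709 and 10862 at day 8, and its marker Tnnt2 was never above the floor. Endothelial markers hardly appeared, with Pecam1, Tek, Tie1 and Emcn never above the floor. The part of these cell types in the differences of the 10 genes was not tested.

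The labelled fate was checked with 13 pancreatic and foregut markers, each of which was above the floor on at least 1 array. Their floored signals summed to 12911 at day 5, 13233 and 20389 in control and MPA cells at day 6, and 11967 and 19941 at day 8, and the list was split in each comparison. With MPA at day 6, 8 of 12 measured were higher, 1 of them 2-fold, and 4 were lower, 0 of them 2-fold. At day 8, 10 of 13 were higher, 2 of them 2-fold, and 3 were lower, 1 of them 2-fold. The shares over all genes were 4.02% and 3.72% 2-fold higher at day 6 and day 8, and 3.15% and 3.18% 2-fold lower. From day 5 to day 8 of the controls, 6 of 11 were higher and 5 lower. Foxa1, of a forkhead factor of endoderm, differed there by 3.15 on the log2 scale and Hhex, of a homeodomain factor of early endoderm, by -3.21. With MPA Foxa1 was 1.51-fold and 2.21-fold higher.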

How the data were processed

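Total RNA of 5 cultures was labelled as biotinylated cRNA and hybridised to Affymetrix mouse arrays, per the labels' protocols. The deposited table holds an intensity on a linear scale for every probe set of each array. MAS5 made these intensities, per the submitters' processing notes, with settings that the labels and notes do not state. Each array shows the same trimmed mean. With 1 array per group, the number of arrays limits the precision.

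Of 45101 probe sets, 64 were controls. Of the rest, 34945 had 1 gene symbol in the platform annotation, 932 had several and 9160 had none, and only the first were used. Of these, 34741 matched RefSeq by gene identifier, with 0 symbols to update. They named 18194 genes, and 9012 of these had more than 1 probe set. Signals were floored at the median of non-control probe sets. Differences of 2-fold or more were counted, and limma 3.58.1 (R 4.3.3, lmFit, eBayes with trend and robust) was run on the genes with 2 or more of the 4 arrays over the floor. The fit was tested on simulated data for this comparison with 11600 genes. Log2 changes of 1, 2 and 3 were put into 81, 55 and 64 genes alike at both days. It called 25.9%, 96.4% and 100% of these, and 18 of 11400 unchanged genes. The simulated noise was normal, with 1 size shared by all genes of similar mean signal. Real genes can differ more, so these shares are not the power for the members. Other steps used Python 3.11.15, numpy 2.4.6, pandas 2.3.3, scipy 1.17.1 and matplotlib 3.10.9.

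The 10 genes, 8 further pathway lists and 8 marker lists were chosen with earlier results of these data known. They hold 226 genes, 216 of them on the array. Named genes are the members, in each list the 4 genes (or fewer) farthest apart with MPA over both days and the 4 farthest apart between days 5 and 8 of the controls, and the 3 nearest profiles of each member above the floor on 3 arrays or more with a 2-fold range. Not every gene the rule allows is printed. Alternatives were quantile normalization, median centring, other floors, log2(signal + floor), other choices of probe set, a 1.5-fold threshold and other forms of the fit.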

Additional observations from a re-analysis of the deposited data

Results flagged for a closer look

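Cdh2 stood apart because its MPA difference had opposite signs at the 2 days, with all 4 arrays above the floor: a log2 difference of 0.30 at day 6 and of -0.28 at day 8. The value at day 8 minus that at day 6 was -0.57. This change between days was not tested, as each group had 1 array. Of 9334 genes above the floor on all 4 arrays, 46.8% had opposite signs at the 2 days, as did 1 of 8 of the genes described here. The second Cdh2 probe set went the same way at both days.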

How the results depend on the processing

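The fit pairs MPA and control arrays by day. Without the day term it called 0 genes, against 1. Of the 10 genes, 0 turned direction under any alternative where its difference was 2-fold or more. Smaller moves, within 1.5-fold, are given below for 1 count only, the 7 genes 2-fold higher at day 8 than at day 5. They became 5 with quantile normalization, median centring, log2(signal + floor) or the mean over probe sets. Without probe sets ending in _s_at, _x_at or _a_at they became 6. They were 8 with the floor at the 25th percentile or a 1.5-fold threshold, and 4 when the floor was the 75th percentile. The 4 of day 6 against day 5 became 0 with that floor and 2 with log2(signal + floor) or without probe sets ending in _s_at, _x_at or _a_at. There 1 gene was lower at a 1.5-fold threshold, against 0 at 2-fold. The 4 genes 2-fold lower with MPA at day 6 became 0 with the floor at the 75th percentile, and 2 with the mean over probe sets or without the named probe sets. The 2 of day 8 became 1 under these 3 alternatives and with log2(signal + floor).

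Of the epithelial targets, the 4 that were 2-fold higher at day 6 became 2 with quantile normalization or log2(signal + floor), and 1 was 2-fold lower at a floor on the 25th percentile, against 0. Of the mesenchymal products, the 2 higher at day 6 became 1 with quantile normalization, median centring, the floor at the 75th percentile or the mean over probe sets, 4 with the floor at the 25th percentile and 0 with log2(signal + floor). The 2 lower at day 6 became 0 with the floor at the 75th percentile or the mean over probe sets, and 1 with log2(signal + floor) or without the named probe sets. At day 8 the 4 higher became 2 with the mean over probe sets, and the 2 lower became 1 with quantile normalization, the mean over probe sets or without the named probe sets, 4 with the floor at the 25th percentile and 0 with that at the 75th. The causes were not tested, except that a higher floor leaves fewer genes measured.

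Over all genes, those 2-fold lower with MPA numbered 385 at day 6, against 2420 and 108 with the floors at the 25th and 75th percentiles and 225 with the mean over probe sets. At day 8 they numbered 401, against 2419, 74 and 233. The limma fit called 1 gene, Fgfbp3, and 0 under 7 of 11 alternatives, and 0 members under all 11. Dim signals limit Snai1, Twist2 and the further probe sets of Prrx1.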
